A study of Mus with 4 samples.

Results

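The expression of *Nipbl* and of 9 genes that work with it on chromatin was examined in newborn mouse hearts with and without extra miR-187. The 10 genes were taken by Ensembl gene ID from an FPKM table of 55487 IDs, and each was found with a version suffix. They were *Nipbl* (ENSMUSG00000022141), which the study put forward as a target of miR-187, and its partners *Mau2* (ENSMUSG00000031858), *Smc1a* (ENSMUSG00000041133), *Smc3* (ENSMUSG00000024974), *Rad21* (ENSMUSG00000022314), *Stag1* (ENSMUSG00000037286), *Stag2* (ENSMUSG00000025862), *Wapl* (ENSMUSG00000041408), *Pds5a* (ENSMUSG00000029202) and *Ctcf* (ENSMUSG00000005698). The genes were listed by function, with earlier results of these data known. FPKM counts sequenced fragments for each kilobase of a transcript and corrects for the size of the library, so levels of different genes can be set side by side.

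The 4 RNA-seq libraries came from heart tissue at postnatal day 0, with 2 labelled wild type (WT) and 2 labelled miR-187. In the study, the miR-187 line is a CRISPR/Cas9 knock-in (KI) at *Rosa26* on the C57BL/6J background, in which the *Tek* (*Tie2*) promoter drives a copy of mouse miR-187 in endothelial cells, and its methods name KI/KI animals and WT controls for sequencing. The labels give neither zygosity, sex, litter nor pooling of pups, and no treatment. They name the heart as the source whereas the methods speak of cardiac endothelial cells, and since IDs of marker genes could not be paired with names, neither the tissue nor miR-187 itself was checked here. The replicates may be separate pups or technical repeats, so p-values measure only the spread between these libraries.

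Cohesin is a ring that embraces DNA. SMC1A and SMC3 are long ATPases that form its sides, RAD21 closes the ring, and STAG1 or STAG2 binds to RAD21 and sits on chromatin. NIPBL, with its partner MAU2, loads the ring and drives the extrusion of DNA loops, WAPL and PDS5A take the ring off again, and the zinc finger protein CTCF stops loops at fixed sites. Loss of 1 copy of *NIPBL* in humans causes Cornelia de Lange syndrome, in which heart septal defects are common. MicroRNAs pair with sites in messenger RNAs and lower their stability or translation, and a loss of protein without a loss of messenger RNA would leave no trace in these values. For *Nipbl* the study reported a loss of both, with lower messenger RNA and lower protein in heart endothelial cells of newborn KI mice. The labels of the libraries used here name heart tissue.

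*Nipbl* lies on chr15:8289824-8465315 in the RefSeq annotation of GRCm38.p6, and *Rad21* lies on the same chromosome at chr15:51962604-51993538. *Smc1a* (chrX:152016428-152061973) and *Stag2* (chrX:42149297-42277186) are X-linked. *Mau2* (chr8:70014527-70042734) and *Ctcf* (chr8:105636474-105682922) share a chromosome, and the others lie on separate ones, *Smc3* at chr19:53600396-53645831, *Stag1* at chr9:100597709-100958544, *Wapl* at chr14:34672379-34747983 and *Pds5a* at chr5:65605719-65698236.

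The libraries themselves were set apart in scale, which bears on every gene below. Their FPKM sums ran from 750826 to 807359, and their read depth is unknown. Across the 14325 genes tested (a mean of at least 1 FPKM), the median deviation of a gene from its own mean on the log2(FPKM + 1) scale was -0.12 in miR-187 replicate 2 and between -0.01 and 0.08 in the other libraries. Values of miR-187 replicate 2 were therefore low for genes in general. Differences are given as deposited, and those after trimmed mean of M-values (TMM) scaling or median centring are set beside them where they matter.

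All 10 genes were expressed in every library, at moderate levels. Mean FPKM over the 4 libraries ran from 2.99 for *Mau2* to 13.7 for *Rad21*, and 40.5% and 79.6% of tested genes lay below these values. *Rad21*, the subunit that closes the ring, was above *Smc1a* in 4 of 4 libraries, although their ranges over all libraries overlapped. *Smc1a*, with a mean of 9.68 FPKM, was above *Ctcf* in every library and without overlap. The next genes stood close together, with means of 6.06 FPKM for *Ctcf*, 5.44 for *Pds5a*, 5.06 for *Smc3*, 4.69 for *Stag1*, 4.59 for *Wapl* and 4.41 for *Stag2*. Each of these had a range that overlapped that of its neighbour, and the neighbour of lower mean was the higher one in at least 1 library. The loaders had the lowest means, with 3.37 FPKM for *Nipbl* and 2.99 for *Mau2*, and *Nipbl* was the higher of the pair in 3 of 4 libraries.

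**Figure D1:**
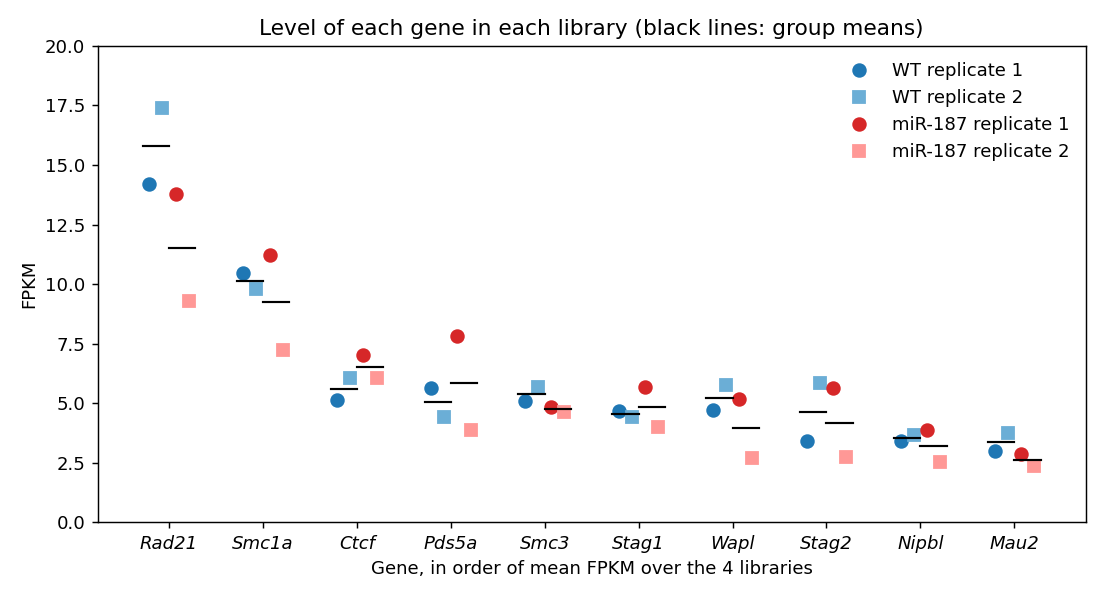
FPKM (linear axis from 0) of each of the 10 genes in the 2 WT libraries (blue) and the 2 miR-187 libraries (red), ordered by mean level, with circles for replicate 1, squares for replicate 2 and black lines for group means. By mean level, *Rad21* and *Smc1a* stand above the others and *Nipbl* and *Mau2* are lowest. The value of miR-187 replicate 2 is the lowest of the 4 for 9 of the 10 genes.

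*Nipbl* did not differ detectably between the groups. Its level was 3.42 and 3.66 FPKM in WT replicates 1 and 2, and 3.86 and 2.53 FPKM in miR-187 replicates 1 and 2. The miR-187 libraries thus held both the highest and the lowest value, and the groups overlapped. Mean levels were 3.54 ± 0.170 FPKM for WT and 3.19 ± 0.942 FPKM for miR-187 (SD, n = 2 each), so that the mean in miR-187 was 90.2% of that in WT. The log2 difference, miR-187 minus WT, was -0.13 (standard error 0.35), with a Benjamini-Hochberg adjusted p of 1.00 over all tested genes (limma, unadjusted p = 0.706). Taken by replicate number it was 0.14 for replicate 1 and -0.40 for replicate 2, and the group difference was -0.36 without miR-187 replicate 1 and turned to 0.10 without miR-187 replicate 2.

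The precision of this comparison can be read from its interval. The 95% confidence interval of the log2 difference for *Nipbl* ran from -0.85 to 0.59. Applied to the fitted WT level of 3.54 FPKM, this corresponds to 1.51 to 5.82 FPKM, or 42.7% to 165% of WT. A level well under that of WT and a level well over it were thus both within what these libraries allow. The line expresses miR-187 in endothelial cells, and the labels name heart tissue whereas the methods name cardiac endothelial cells. Only if whole hearts were sequenced would a difference within 1 cell type be diluted by other cells, and this was not tested. Fewer cells of a type cannot be told apart from less RNA per cell.

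*Mau2*, which encodes the partner that NIPBL needs for stability, had 2.98 and 3.77 FPKM in the WT libraries, against 2.85 and 2.35 FPKM in the miR-187 libraries. Both miR-187 values lay under both WT values, with a gap of 0.129 FPKM between the nearest. Mean levels were 3.37 ± 0.560 FPKM for WT and 2.60 ± 0.351 FPKM for miR-187 (SD, n = 2 each), and the log2 difference was -0.28 (standard error 0.34, limma adjusted p = 1.00). It was -0.15 without WT replicate 2.

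The ring subunit gene *Rad21* showed the largest log2 difference in size of the 10 genes with all 4 libraries. It had 14.2 and 17.4 FPKM in the WT libraries, against 13.8 and 9.30 FPKM in the miR-187 libraries, so that the groups did not overlap, with 0.452 FPKM between the nearest values, those of the replicate 1 libraries. Mean levels were 15.8 ± 2.26 FPKM for WT and 11.5 ± 3.16 FPKM for miR-187 (SD, n = 2 each), or 72.9% of WT. The log2 difference of -0.44 had a standard error of 0.38 and an interval of -1.23 to 0.35, and did not pass the test (limma adjusted p = 1.00, unadjusted p = 0.258). By size, 81.8% of tested genes had a smaller log2 difference in either direction. Taken by replicate number, the difference was -0.04 for replicate 1 and -0.84 for replicate 2. It was -0.18 without miR-187 replicate 2, when that of *Pds5a* was larger in size at 0.55, and -0.70 without miR-187 replicate 1, when that of *Wapl* was at -0.74.

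The SMC ATPases had small differences between group means that did not pass the test. *Smc1a* had 10.5 and 9.79 FPKM in the WT libraries, against 11.2 and 7.25 FPKM in the miR-187 libraries, with the WT values inside the range of the miR-187 values. *Smc3* was the steadiest of the 10 genes, with 5.07 and 5.68 FPKM in the WT libraries, against 4.86 and 4.64 FPKM in the miR-187 libraries, a highest value 1.23 times the lowest. Its groups did not overlap as deposited, with 0.216 FPKM between the nearest values, and overlapped after TMM scaling or median centring. Both genes had a log2 difference of -0.15, with standard errors of 0.37 and 0.35. With single libraries left out, that of *Smc1a* ran from -0.43 to 0.13 and that of *Smc3* from -0.22 to -0.080, the ends being set for *Smc1a* by replicates 1 and 2 of miR-187 and for *Smc3* by replicates 1 and 2 of WT.

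*Stag1* and *Stag2* encode alternative subunits of which each ring holds 1. *Stag1* had 4.66 and 4.40 FPKM in the WT libraries, against 5.68 and 4.02 FPKM in the miR-187 libraries, and its log2 difference of 0.07 turned to -0.14 without miR-187 replicate 1 and was 0.27 without miR-187 replicate 2. *Stag2* varied most between libraries, with 3.41 and 5.86 FPKM in the WT libraries, against 5.63 and 2.73 FPKM in the miR-187 libraries. Each group held a high and a low library, and the highest value was 2.14 times the lowest. Its log2 difference of -0.14 (standard error 0.38) was made up of 0.59 for replicate 1 and -0.88 for replicate 2. It turned to 0.27 without miR-187 replicate 2 and to 0.17 without WT replicate 2, and was -0.56 without miR-187 replicate 1 and -0.46 without WT replicate 1. The share of *Stag2* in the sum of the 2 genes was 42.2% and 57.1% in WT and 49.8% and 40.5% in miR-187. As *Stag1* and *Stag2* are paralogs, reads of similar stretches could have been divided between them, and their split is less certain than their sum of 8.07 and 10.3 FPKM in the WT libraries, against 11.3 and 6.75 FPKM in the miR-187 libraries.

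Neither gene for removal of the ring passed the test. *Wapl*, whose product opens the ring, had 4.72 and 5.74 FPKM in the WT libraries, against 5.19 and 2.71 FPKM in the miR-187 libraries. Its log2 difference of -0.37 (standard error 0.36) rested on the low value in miR-187 replicate 2 and was -0.0046 without that library and -0.74 without miR-187 replicate 1. *Pds5a*, whose product binds RAD21 and works with WAPL, had 5.63 and 4.44 FPKM in the WT libraries, against 7.81 and 3.89 FPKM in the miR-187 libraries. The miR-187 values lay on either side of both WT values, and the log2 difference was 0.13 (standard error 0.37). It turned to -0.30 without miR-187 replicate 1 and to -0.014 without WT replicate 2.

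*Ctcf*, whose product marks loop boundaries, had the highest log2 difference of the 10 genes with all 4 libraries, but *Pds5a* was higher without WT replicate 1 (0.27 against 0.086) and without miR-187 replicate 2 (0.55 against 0.28). The level of *Ctcf* was 5.13 and 6.07 FPKM in the WT libraries, against 7.01 and 6.04 FPKM in the miR-187 libraries, with the lowest value in WT replicate 1 and not in miR-187 replicate 2 as for the other genes. The log2 difference of 0.19 had an interval of -0.54 to 0.92 (standard error 0.35, limma adjusted p = 1.00), and was 0.096 without miR-187 replicate 1 and 0.29 without WT replicate 2. The groups just overlapped as deposited, with miR-187 replicate 2 under WT replicate 2, and did not overlap after TMM scaling, when the log2 difference was 0.24.

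**Figure D2:**
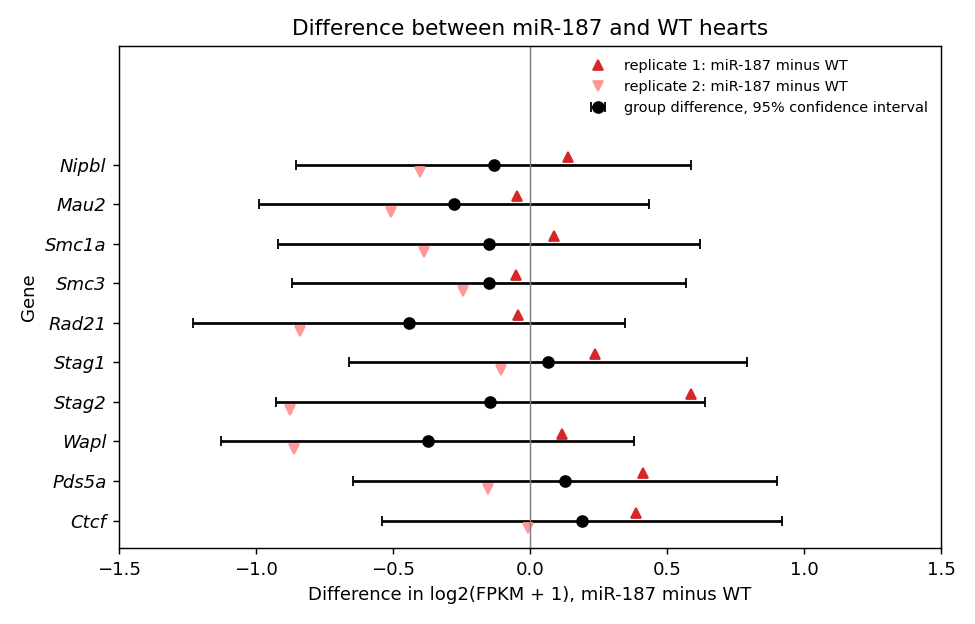
Difference in log2(FPKM + 1), miR-187 minus WT, for each of the 10 genes. Black points with bars are the group difference and its 95% confidence interval from limma, and triangles are the differences between the libraries of the same replicate number. Every interval spans 0, and for each gene the replicate 2 difference lies below the replicate 1 difference.

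Counted together, 0 of the 10 genes passed an adjusted p under 0.05 (limma), and 0 had an unadjusted p under 0.05. Over all tested genes 0.00698% passed. Of the 10 genes, 7 had a negative and 3 a positive log2 difference, against 55.7% negative over all tested genes. The median was -0.15 for the 10 genes and -0.04 for all tested genes, and their median size regardless of sign was 0.15 against 0.21. The groups did not overlap with miR-187 lower in 3 of the 10 genes (*Mau2*, *Smc3* and *Rad21*) and with miR-187 higher in 0. The shares over all tested genes were 13.2% lower and 12.3% higher. After median centring or TMM scaling, *Smc3* overlapped and *Ctcf* no longer did, which gave 2 lower and 1 higher. The shares over all tested genes were then 12.8% lower and 14.2% higher after median centring, and 12.2% lower and 14.8% higher after TMM scaling.

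The 10 genes shared a pattern by library. In miR-187 replicate 2, 9 of the 10 genes had their lowest value, *Ctcf* being the exception, while the highest value was in WT replicate 2 for 5 of them and in miR-187 replicate 1 for the other 5. Of all tested genes 39.1% were lowest in miR-187 replicate 2, and of the 5606 tested genes with a mean between those of *Mau2* and *Rad21* 42.8% were. The median deviation of the 10 genes in that library was -0.33 on the log2(FPKM + 1) scale, against -0.12 for all tested genes and -0.14 for those of similar level. Scaling moved these values toward those of the other libraries. After TMM scaling 6 of the 10 genes were lowest there, against 27.5% of all tested genes and 29.95% of those of similar level, with a median deviation of -0.20 against -0.0027 for all tested genes. After median centring 5 were, against 25.5% and 29.7%, with a median deviation of -0.20 against 0.0081. The 6 genes after TMM scaling were *Wapl* with a deviation of -0.44, *Stag2* with -0.37, *Rad21* with -0.34, *Smc1a* with -0.22, *Nipbl* with -0.18 and *Mau2* with -0.13. *Pds5a* had -0.23 in that library and was slightly lower in WT replicate 2, *Stag1* had -0.049, and *Smc3* and *Ctcf* lay above their means with 0.025 and 0.13. With this library left out, 4 of the 10 genes had a negative log2 difference in place of 7, and the median over the 10 genes turned to 0.12, against 0.06 over all genes then tested. With miR-187 replicate 1 left out instead, 9 of the 10 genes had a negative log2 difference, with a median of -0.37 over the 10 genes against -0.14 over all genes then tested.

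**Figure D3:**
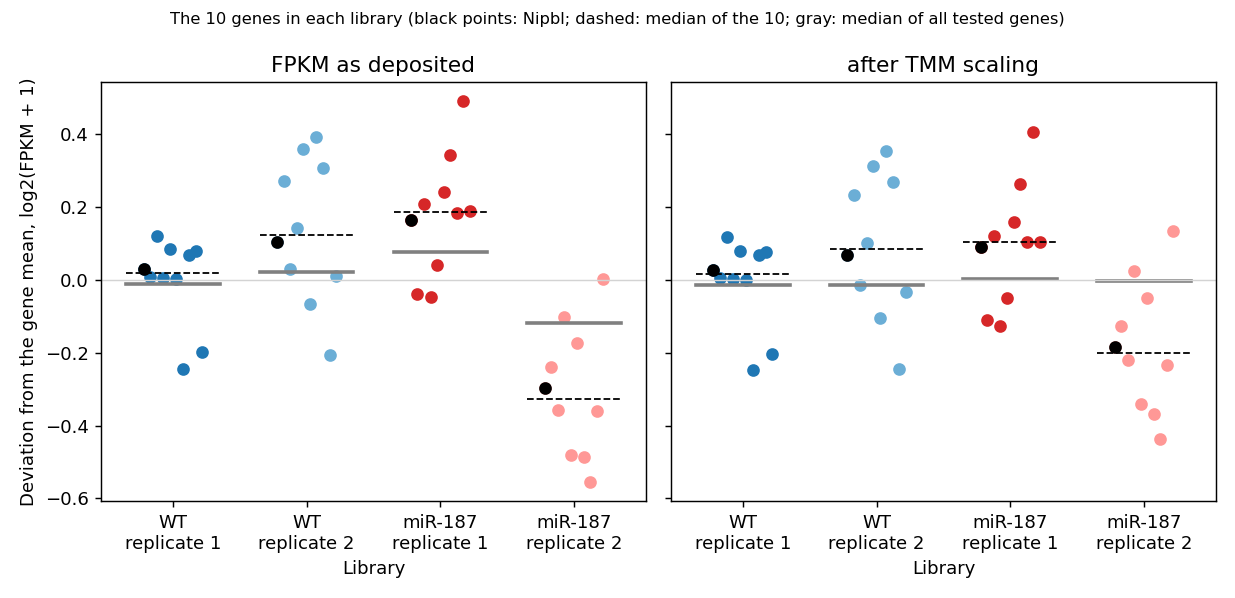
Deviation of each of the 10 genes from its own mean over the 4 libraries, in log2(FPKM + 1), as deposited (left) and after TMM scaling (right). Black points are *Nipbl*, dashed lines the median of the 10 genes and gray lines the median of all tested genes. In miR-187 replicate 2 the dashed line stands at -0.33 and the gray line at -0.12 on the left, and at -0.20 and near 0 on the right.

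Ratios within a library do not depend on its scale and were used to ask whether the balance of the machinery differed. The ring subunits *Smc1a*, *Smc3*, *Rad21*, *Stag1* and *Stag2* together summed to 37.9 and 43.1 FPKM in WT and to 41.1 and 27.9 FPKM in miR-187. *Nipbl* amounted to 9.03% and 8.48% of this sum in WT and to 9.38% and 9.05% in miR-187. Both miR-187 shares lay above both WT shares, narrowly for the nearest, those of miR-187 replicate 2 and WT replicate 1. Among ratios of single tested genes to each other, 27.8% had groups that did not overlap. No such background was computed for ratios of a gene to a sum. *Mau2* amounted to 7.86% and 8.73% in WT and to 6.92% and 8.42% in miR-187, and the groups overlapped. These shares were chosen after the values were seen and are given without a test.

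Of the 6 ratios between partners, those of the loaders and of the SMC pair had overlapping groups. The ratio of *Nipbl* to *Mau2* was 1.15 and 0.971 in WT and 1.36 and 1.07 in miR-187, and its log2 difference was 0.19 with overlapping groups. *Smc1a* was 2.07 and 1.72 times *Smc3* in WT and 2.31 and 1.56 times in miR-187, a log2 difference of 0.0097. *Rad21* was 2.80 and 3.07 times *Smc3* in WT and 2.83 and 2.01 times in miR-187, a log2 difference of -0.30 in which miR-187 replicate 2 alone stood low. *Stag2* relative to *Stag1* gave a log2 difference of -0.26, smaller than the SD of 0.61 between the WT libraries.

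The remaining 2 of the 6 pairs had groups that did not overlap, as did 27.8% of all pairs that can be formed from the 14289 tested genes above 0 in every library. *Ctcf* relative to *Rad21* was 0.360 and 0.349 in WT and 0.509 and 0.649 in miR-187. The WT libraries were near each other and both miR-187 libraries were above them, with mean log2 ratios of -1.50 ± 0.0336 and -0.80 ± 0.248 (SD, n = 2 each), a difference of 0.70 that lay between 0.52 and 0.87 with any single library left out. *Pds5a* relative to *Wapl* was 1.19 and 0.773 in WT and 1.51 and 1.43 in miR-187, a log2 difference of 0.61 that fell to 0.30 without WT replicate 2. With 2 libraries against 2, an exact two-sided permutation test cannot give a p below 0.333, which both pairs reached (exact p = 0.333 each, 0.800 after Benjamini-Hochberg adjustment over the 6 ratios, n = 2 per group). Relative to the ring sum, *Ctcf* amounted to 13.5% and 14.1% in WT and to 17.0% and 21.6% in miR-187, and *Rad21* to 37.6% and 40.4% in WT and 33.5% and 33.3% in miR-187. *Wapl* amounted to 12.5% and 13.3% in WT and to 12.6% and 9.71% in miR-187, and *Pds5a* to 14.9% and 10.3% in WT and 19.0% and 13.9% in miR-187, both with overlapping groups.

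**Figure D4:**
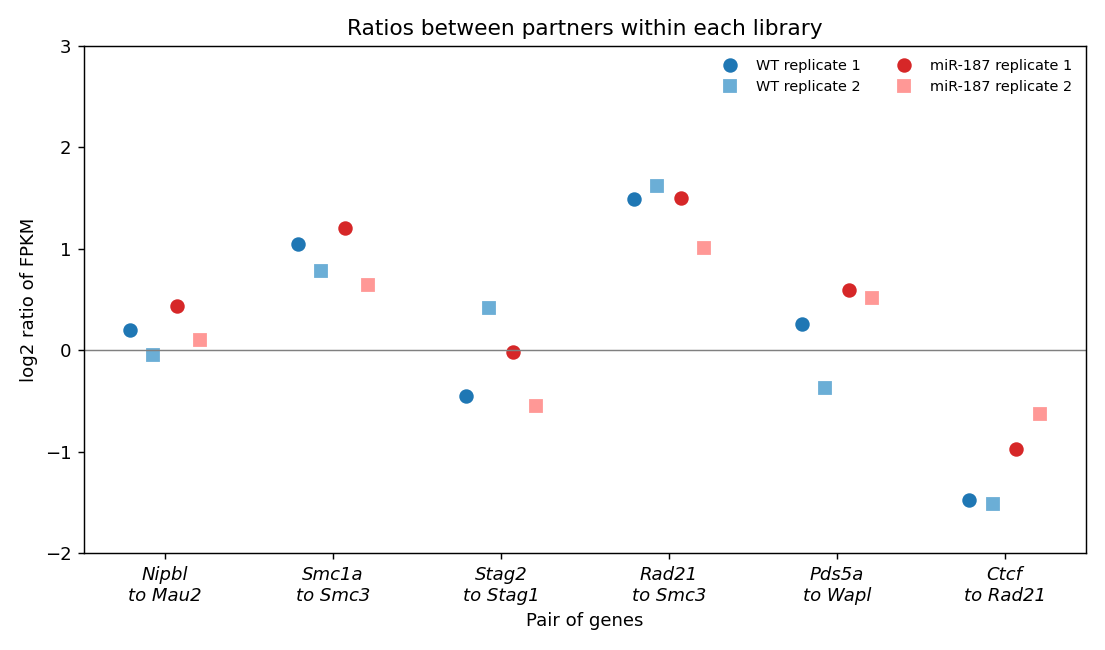
Log2 ratio of FPKM between partners in each library, with WT in blue, miR-187 in red, circles for replicate 1 and squares for replicate 2. Both miR-187 libraries are above both WT libraries for *Ctcf* to *Rad21* and for *Pds5a* to *Wapl*, and the groups overlap for the other 4 pairs.

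To describe which genes ran most like *Nipbl* over the 4 libraries, the Euclidean distance between profiles of log2(FPKM + 1), each centred on the mean of its gene, was taken. Nearest among the 14324 other tested genes were ENSMUSG00000039943.16 and ENSMUSG00000039531.8, with distances of 0.027 and 0.029, which could not be paired with names here. ENSMUSG00000039531.8 had 3.71 and 3.85 FPKM in the WT libraries, against 4.05 and 2.71 FPKM in the miR-187 libraries, close to *Nipbl* in level too. Of the partners, *Smc1a* came nearest, at a distance of 0.140 and rank 299, followed by *Stag1* at 0.226 and rank 1118, *Mau2* at 0.270 and rank 1787 and *Smc3* at 0.291 and rank 2121. The others ranked between 2817 (*Wapl*) and 5717 (*Stag2*). With 4 libraries many profiles are alike, and the ranks are a description of these libraries only.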

How the data were processed

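RNA-seq values were available for 4 heart libraries, 2 WT and 2 miR-187, grouped by their labels. The authors deposited FPKM values, 1 column per library. The submitters' processing notes name mm10, HISAT2, StringTie and DESeq2 without versions; annotation and strand use are not given in the sources used here. Without counts, depth is unknown and no counting interval or floor is given.

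The 14325 IDs that averaged 1 FPKM or more were compared as log2(FPKM + 1) with limma 3.58.1 in R 4.3.3 (eBayes with trend, group only). This scale understates differences of low genes. P-values were two-sided and Benjamini-Hochberg adjusted over all tested genes (threshold 0.05). Figures used matplotlib 3.10.9 in Python 3.11.15.

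The named genes were the 10 genes and, by rule, the 2 IDs nearest to *Nipbl* in profile. Genes and lists were chosen with earlier results of these data known. Positions came from a RefSeq table (GRCm38.p6, 49997 rows) by symbol, for 10 of 10 genes. It held 0 Ensembl IDs, so lists of other cohesin and SMC genes, genes with miR-187 sites and cell type markers were not analysed here. No sequences were used here.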

Additional observations from a re-analysis of the deposited data

How the results depend on the processing

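No gene of the 10 passed an adjusted p under 0.05 in any alternative that kept all 4 libraries (limma). Over all genes tested, those passing there ran from 0 of 54560 without a minimum mean to 51 of 14325 with the replicate block. Under the 12 alternatives, 113 of 120 values kept their direction, and the 7 that did not came from leaving out a library. With the replicate block the *Nipbl* difference was again -0.13 (adjusted p = 1.00); the replicate numbers were not taken as pairs, as deviations of same-numbered libraries correlated with r = -0.0675 across genes. The *Nipbl* difference lay between -0.36 and 0.10 when a library was left out, the ends being set by omission of replicates 1 and 2 of miR-187. In the same fits *Smc1a* ran from -0.43 to 0.13, *Stag2* from -0.56 to 0.27, *Pds5a* from -0.30 to 0.55 and *Stag1* from -0.14 to 0.27, while *Mau2* ran from -0.41 to -0.15, *Smc3* from -0.22 to -0.080, *Rad21* from -0.70 to -0.18, *Wapl* from -0.74 to -0.0046 and *Ctcf* from 0.086 to 0.29. Without miR-187 replicate 2 the sign of *Nipbl*, *Smc1a* and *Stag2* turned, without miR-187 replicate 1 that of *Stag1* and *Pds5a*, and without WT replicate 2 that of *Stag2* and *Pds5a*. Genes with groups that did not overlap numbered 1 higher after median centring, likewise 1 after TMM scaling, and ran from 0 to 5 higher and from 3 to 9 lower with a library left out (9 lower without miR-187 replicate 1, 5 higher without miR-187 replicate 2, 5 lower without WT replicate 1). An arm of 1 library makes this easier, and over all genes then tested 43.9% were lower, 36.5% higher and 35.1% lower in the same 3 fits. In these fits the lone library is assumed to vary like the other group.

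Taken within replicate 1 and within replicate 2 (replicate block), log2 ratio differences, miR-187 minus WT, were 0.44 and -0.97 for *Stag2* to *Stag1*, 0.016 and -0.61 for *Rad21* to *Smc3*, and 0.50 and 0.90 for *Ctcf* to *Rad21*. With a library left out they ran from 0.025 to 0.36 for *Nipbl* to *Mau2*, -0.27 to 0.29 for *Smc1a* to *Smc3*, -0.70 to 0.17 for *Stag2* to *Stag1*, -0.55 to -0.049 for *Rad21* to *Smc3*, 0.30 to 0.93 for *Pds5a* to *Wapl* and 0.52 to 0.87 for *Ctcf* to *Rad21*. Alternatives for the other gene lists were not run, as their symbols could not be paired with IDs.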
